A study of Mus musculus with 8 samples.

Results

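miR-378, miR-378* and miR-33 are 3 of the 567 mouse microRNAs (miRNAs) with probes on the array of this study, and each lies within a gene of lipid or energy metabolism. miR-378 and miR-378* are the 2 arms of a single hairpin within Ppargc1b, and miR-33 lies within Srebf2, by RefSeq gene records of build GRCm38.p6, which give gene bounds but not exons and introns. The members were found as mmu-miR-378, mmu-miR-378* and mmu-miR-33 among the non-control spots of the scanner files, which gave 60 of the 11340 mouse miRNA spots per array: 2 probes per miRNA, each printed 10 times. They were chosen by their signal in db/db against db/+ livers on these same 8 arrays, so that difference is given as a description, with no test.

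A miRNA is cut from a hairpin in a longer transcript, and either arm of the hairpin can be loaded onto an Argonaute protein, where its seed pairs with messenger RNAs and lowers their translation or stability. A miRNA in an intron is usually transcribed with its host gene. Ppargc1b encodes PGC-1β, a coactivator that raises mitochondrial and lipogenic gene expression in liver, and Srebf2 encodes SREBP-2, the transcription factor that switches on cholesterol synthesis and uptake. miR-33 is known for repressing Abca1, which exports cholesterol from cells, and genes of fatty acid oxidation, while both miR-378 arms are known from mitochondrial metabolism.

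The study set 4 liver samples of diabetic db/db mice against 4 liver samples of db/+ mice. The db/db mouse has 2 mutant copies of the leptin receptor gene and becomes obese and diabetic; the db/+ control carries 1 mutant copy, so both strains hold the allele. The labels describe db/db as C57BL/KsJ mice, and no other treatment is named. The series text reports higher body weight and plasma glucose in db/db; no source used here states ages. Per the labels, each sample gave 100 ng of total liver RNA, which carried the single dye Cy3 on its own Agilent array.

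The arrays differed in brightness. Each was divided by a factor, its median signal of the 89 miRNAs flagged as detected throughout relative to the geometric mean of these medians over the 8 arrays, and the factors were 0.210 to 5.63 for db/+ and 0.847 to 1.06 for db/db. Between 91 and 255 miRNAs were detected per db/+ array and between 133 and 166 per db/db array. The arrays shared 1 slide with db/+ in row 2 and db/db in row 1, so row and strain cannot be told apart; the slide columns 1 to 4 held replicates 1 to 4 of both strains. The hepatocyte miRNA miR-122 was detected on all 8 arrays, at log2 levels of 14.57 to 15.99 in db/+ and 15.42 to 15.55 in db/db, which fits the labelled tissue, and none of the 6 skeletal and heart muscle miRNAs looked for was detected on any array.

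The mature arms of the miR-33 hairpin are shown because miR-33 and miR-33* are both probed on the array but gave different signals. The sequences are from RefSeq, build GRCm38.p6, plus strand, 5′ to 3′, with the seed, bases 2 to 8, in capitals for the mature arms, and with both mature arms in capitals for the hairpin of 69 bases.
miR-33-5p (miR-33 on the array): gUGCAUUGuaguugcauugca
miR-33-3p (miR-33* on the array): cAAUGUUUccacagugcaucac
Mir33 hairpin: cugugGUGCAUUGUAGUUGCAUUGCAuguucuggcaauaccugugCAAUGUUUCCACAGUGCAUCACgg
Each of these seeds belongs to 1 of the 1679 mature miRNA names in the RefSeq table, so no other listed mouse miRNA shares the seed of either arm.

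miR-378 was higher in the db/db livers, by 2.12-fold. Its scaled signal was 62.7, 84.9, 98.8 and 109 in db/+ replicates 1 to 4, and 155, 197, 216 and 178 in db/db replicates 1 to 4. All 4 db/db arrays lay above all 4 db/+ arrays, with db/+ replicate 1 the lowest. On the log2 scale the level was 6.44 ± 0.35 in db/+ and 7.53 ± 0.21 in db/db (SD, n = 4 each), a difference of 1.09 ± 0.20 (SE of limma, a linear model fitted to the 127 miRNAs detected on every array of db/+, of db/db or of both). Of these 127, 5 had a larger positive difference, and the median difference was 0.15. The strains did not overlap for 29 of the 127 (22.8%), and for 20 of them (15.7%) db/db was the higher strain. miR-378 and miR-378* are both among the latter, and nothing is read from this, as both were chosen on this contrast. All 127 were detected on every db/db array, and 89 of them on every db/+ array too. The others passed the filter through db/db alone, which favours miRNAs higher in db/db. These shares and the median are therefore not a neutral background.

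The separation of the strains appeared only after scaling. Before scaling, the miR-378 signal was 353, 47.9, 156 and 23.0 in db/+ replicates 1 to 4 and 131, 210, 214 and 188 in db/db replicates 1 to 4. The unscaled db/+ values spanned 15.3-fold and enclosed all the db/db values; after scaling they spanned 1.75-fold, and the db/db values 1.39-fold. Among the db/+ arrays the scaled level was lowest on the brightest array, replicate 1, and highest on the dimmest, replicate 4; the part of array brightness in the difference was not tested. Without these 2 arrays the difference was 0.96 ± 0.25 (SE), and with no scaling of any array it was 1.05 ± 0.98 (SE).

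**Figure D1:**
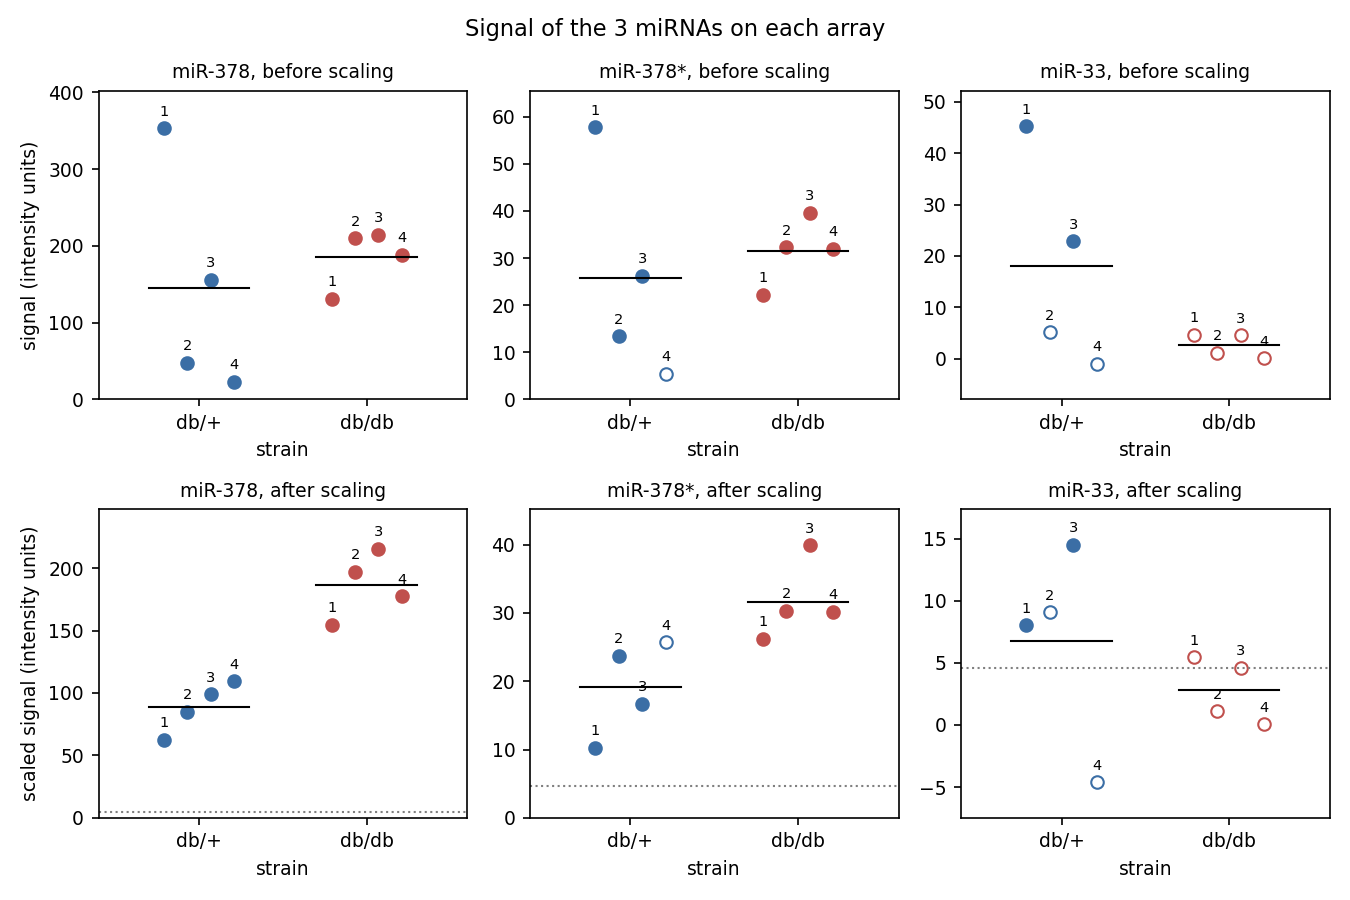
Signal of miR-378, miR-378* and miR-33 on each array in intensity units, before scaling (top) and after it (bottom), by strain. Points are arrays numbered by replicate, filled where the miRNA was flagged as detected and open where it was not, black bars are strain means, and the dotted line is the floor of 4.59. The scaled miR-378 values of db/db (155 to 216) lie above those of db/+ (62.7 to 109), while miR-33 was detected on db/+ replicates 1 and 3 alone.

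Both miR-378 probes gave the same difference. In the array files' coordinates (mm9) they cover chromosome 18, 61557492 to 61557505 for the longer one and 61557492 to 61557504 for the shorter, spans of 14 and 13 bases within Ppargc1b. The longer probe read 79.2 to 144 scaled units in db/+ and 194 to 273 in db/db, a log2 difference of 1.08 ± 0.21 (SE from the spread within strains, n = 4 each). The shorter one read 46.2 to 75.1 and 116 to 159, a log2 difference of 1.09 ± 0.19. Neither probe's ranges overlapped between strains. Repeat spots of a probe on 1 array varied little, with a median coefficient of variation over the 8 arrays of 3.92% for the longer and 7.37% for the shorter probe; the largest, 13.5% and 34.8%, were on db/+ replicate 4. On that array 0 of 10 spots of the shorter probe were well above background, against 7 of 10 of the longer one.

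miR-378*, the other arm of the hairpin, was dimmer and was higher in db/db by a smaller amount. Its scaled signal was 10.3, 23.8, 16.7 and 25.7 in db/+ replicates 1 to 4, and 26.2, 30.3, 39.9 and 30.2 in db/db replicates 1 to 4. The strains did not overlap, but the highest db/+ array, replicate 4, and the lowest db/db array, replicate 1, differed by 0.026 on the log2 scale. The log2 level was 4.17 ± 0.60 in db/+ and 4.97 ± 0.25 in db/db (SD, n = 4 each), a difference of 0.80 ± 0.28 (SE, limma). Without db/+ replicate 1, the lowest array, the difference was 0.53 ± 0.21 (SE, limma).

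The db/+ values of miR-378* are less secure than those of db/db. In db/+ it was detected on replicates 1 to 3 and well above background on replicates 1 and 3 only, while it was both on all 4 db/db arrays. Those 2 measured db/+ arrays were the lowest of the strain, and the undetected value on replicate 4 was the highest. The lowest scaled signal of any detected miRNA was 13.1 on db/+ replicate 2 and 25.9 on replicate 4, so the value of 25.7 on replicate 4 lies at that array's limit.

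The 2 miR-378* probes were less alike than those of miR-378. The longer one covers chromosome 18, 61557529 to 61557546 (mm9, 18 bases), and read 13.6 to 32.5 scaled units in db/+ and 36.7 to 52.8 in db/db. Its log2 difference was 0.89 ± 0.32 (SE) and its strains did not overlap. The shorter one, 61557529 to 61557545 (17 bases), read 6.91 to 18.9 and 15.7 to 27.0, a log2 difference of 0.62 ± 0.36, and here the strains overlapped. In db/db 35 of 38 spots of the longer probe were well above background and 9 of 39 of the shorter one, and most spots of the shorter probe that were well above background came from db/+ replicate 1 (9 of 9) and db/db replicate 3 (8 of 10).

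**Figure D2:**
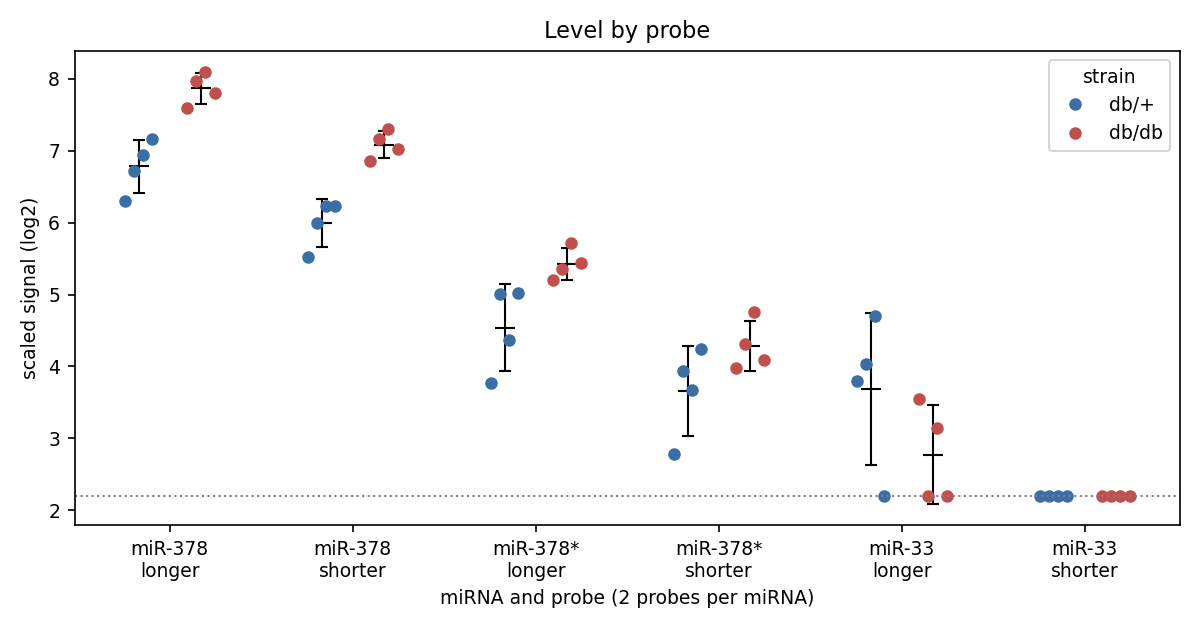
Scaled signal on a log2 scale for the longer and the shorter probe of each miRNA, with 1 point per array coloured by strain and bars for mean ± SD over 4 arrays. The dotted line is the floor, to which lower values were set. The miR-378 probes differed between strains by 1.08 and 1.09, the miR-378* probes by 0.89 and 0.62, and all 8 values of the shorter miR-33 probe lie at the floor.

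Within an array, the log2 signal of miR-378 minus that of miR-378* shows whether the arms changed unequally. That quantity differed between strains by 0.29 ± 0.20 (SE, n = 4 arrays each), and its SD among the arrays was 0.38 in db/+ and 0.11 in db/db. The value was 0.14 without db/+ replicate 2 and -0.14 with the authors' deposited scores, so no direction is given for an inequality of the arms. For 10 other hairpins both arms were tested, and over all 11 the size of the difference between arms had a median of 0.31 and exceeded that of miR-378 for 7. The extremes were miR-338, at -0.89 (3p minus 5p), and miR-125a, at 1.32. miR-378 was 1 of 5 hairpins with a positive difference between strains in both arms, and miR-31 had 1.09 and 1.39 for its 2 arms. Over all 127 tested miRNAs 84 had a positive difference. Among these hairpins miR-378*, miR-31*, miR-22* and miR-126-5p passed the filter through db/db alone, so nothing is read from the count.

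**Figure D3:**
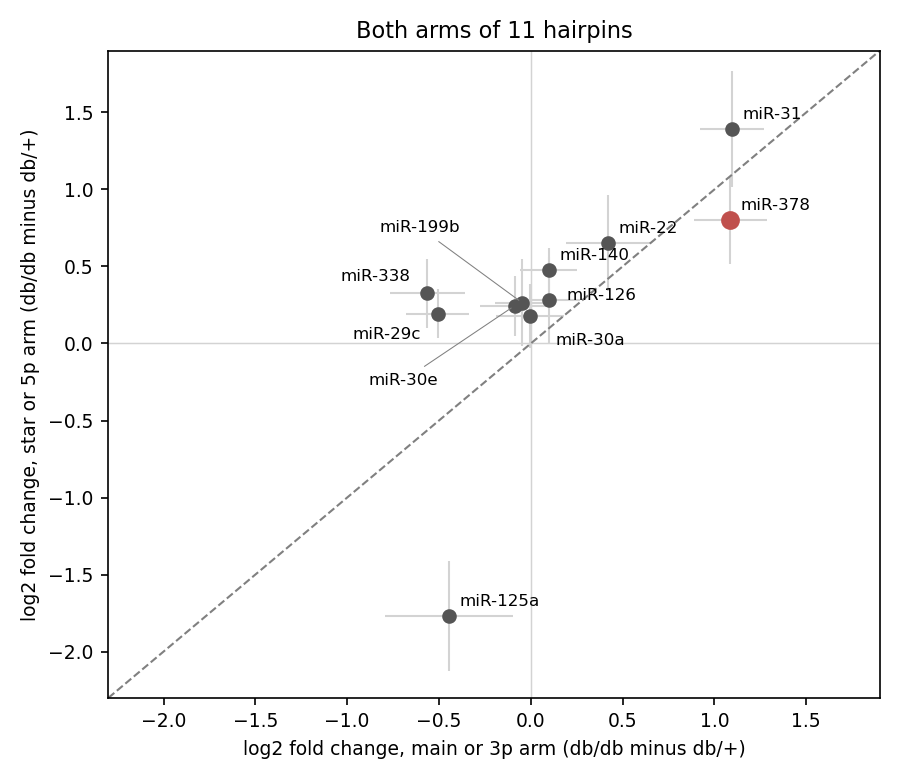
Log2 fold change (db/db minus db/+) of both arms for the 11 hairpins with 2 tested arms, with the main or 3p arm on the horizontal axis, the star or 5p arm on the vertical axis and bars for ± SE. The dashed line marks equal change. miR-378, in red, stands at 1.09 and 0.80, close to the line, and miR-125a is farthest from it.

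The patterns most like miR-378 across the 8 arrays, by the root mean square difference of log2 levels centred on each miRNA's own mean, were those of miR-107 (0.23), miR-31 (0.26) and miR-378* (0.28), where the median over the 126 other tested miRNAs was 0.61. For miR-378* the order was miR-107 (0.23), miR-378 (0.28) and miR-22 (0.32), against a median of 0.57. This measure holds the difference between strains for which both arms were chosen. With each strain's mean removed, the root mean square difference between the arms was 0.24, which placed miR-378* at rank 18 of 126 from miR-378 and miR-378 at rank 8 of 126 from miR-378*. miR-107 lies within Pank1, the gene of a pantothenate kinase of coenzyme A synthesis.

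miR-33 was close to background in these livers. It was detected on db/+ replicates 1 and 3, the 2 brightest arrays, and on no other db/+ array and on none of the 4 db/db arrays, so it did not enter the test. Before scaling its signal was 45.3, 5.13, 22.9 and -0.97 in db/+ replicates 1 to 4, and 4.62, 1.18, 4.56 and 0.068 in db/db replicates 1 to 4. Scaled, it was 8.04, 9.10, 14.5 and -4.61 in db/+, and 5.45, 1.11, 4.59 and 0.064 in db/db. The 3 highest scaled values were all from db/+, but the lowest was too, and the strains overlapped.

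No size can be given for a difference in miR-33. Values at or below the floor of 4.59 on 1 db/+ array and 2 db/db arrays were set to it, which left log2 levels of 3.06 ± 0.68 in db/+ and 2.26 ± 0.12 in db/db and a fitted difference of -0.80 ± 0.35 (SE, limma on all 567 miRNAs). With a floor 4 times higher the fitted difference was 0, since all 8 values then lay at the floor, and with one 4 times lower it was -1.30. For each db/db array the bound was its lowest signal well above background, or its miR-33 signal where that was higher. The bounds had a mean of 3.35 on the log2 scale, and the db/+ mean of 3.06 was not higher. Without db/+ replicate 4 the fitted difference was -1.48, and without db/+ replicate 3 it was -0.33. Scaling and floor were set anew for the arrays kept, so these shifts also hold a change of the floor.

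The signal of miR-33 came from 1 of its 2 probes. The longer covers all 21 bases of the mature arm, chromosome 15, 82028557 to 82028577 (mm9, within Srebf2), and read 13.9, 16.3, 26.0 and 0.93 scaled units in db/+ replicates 1 to 4 and 11.7, 2.39, 8.85 and -0.29 in db/db replicates 1 to 4. It was well above background in 20 of 39 db/+ spots, those of replicates 1 and 3, and in 0 of 35 db/db spots. The shorter one, 82028558 to 82028577, leaves out 1 base and was well above background in 0 of 40 db/+ spots and 0 of 38 db/db spots. miR-33*, the other arm shown above, was detected on 0 of 8 arrays, with unscaled signals from -5.45 to -1.58 in db/+ and -5.19 to -1.61 in db/db over its 4 probes.

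The members stand in a list of 31 miRNAs known from lipid and cholesterol metabolism, of which 29 had probes and 18 were tested. Of the 18, 4 rose and 2 fell at an adjusted p under 0.05 (limma, Benjamini-Hochberg over the 127), where 19 of all 127 passed (15.0%; 12 higher, 9.45%, and 7 lower, 5.51%). The 4 include miR-378, and miR-378* is among the other 12; as both were chosen on this contrast, nothing is read from their counts. The call of miR-378 depended on the processing. It was lost with normexp, raw medians, no scaling, the authors' deposited scores, no filter, scaling to miR-122 or without db/+ replicates 1 and 4. The other settings reuse the same 8 arrays and the contrast on which miR-378 was chosen, so keeping the call there is no further support. Among the settings that tested miR-378*, it passed with the authors' deposited scores and with array weights only, and the same limit holds. The split over all miRNAs depended on scaling, with 6 higher and 8 lower at the 75th percentile, 9 and 8 by quantiles and 10 and 11 by cyclic loess. With the test limited to the 89 miRNAs detected on all 8 arrays, 8 were higher and 6 lower. The median log2 difference of the list was 0.099, against 0.15 over all tested miRNAs. miR-34a, which represses the deacetylase Sirt1, rose by 2.54 ± 0.26 on the log2 scale (limma adjusted p = 0.00017), and miR-107 by 0.74 ± 0.17 (limma adjusted p = 0.0164). miR-103 also rose, by 0.58 ± 0.14, while miR-21, a miRNA of growth and fibrosis, fell by 0.78 ± 0.16 (limma adjusted p = 0.00846) and miR-223, made mainly in myeloid cells, fell by 0.74 ± 0.22 (SE, n = 4 per strain). The relatives miR-103 and miR-107 differ by few bases, so their probes can share signal. miR-182, miR-183 and miR-96, a cluster known to be driven by SREBP-2, like miR-33 did not enter the test. They were detected on 1, 1 and 3 db/+ arrays and on 0, 0 and 1 db/db arrays. Detection varied with brightness, from 91 miRNAs on the dimmest db/+ array to 255 on the brightest. Other untested members of the list were detected on fewer, as many or more db/db arrays than db/+ arrays. No direction is read from these counts.

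By RefSeq gene records, 108 of the 127 tested miRNAs had 1 locus, and 59 of these lay within a protein-coding gene, regardless of strand. Among the 59, 4 rose and 5 fell, with a median log2 difference of 0.10; outside such genes 5 of 49 rose and 2 fell, with a median of 0.15. Besides miR-378, the increases were miR-107, miR-676 within Eda and miR-149 within Gpc1, of which the last was detected on 0 and miR-676 on 2 db/+ arrays. The decreases included let-7e within Spaca6, which fell by 1.00 ± 0.18 (SE, log2). miR-99b and miR-125a-5p, which also fell, lie within Spaca6 too, so the 5 decreases do not stand for 5 separate genes. In a list of 33 miRNAs known to lie within genes, 5 of 23 tested members rose, the 4 named and miR-103, and miR-21 fell, where 9.45% of all tested miRNAs were higher and 5.51% lower. This list was chosen with earlier results of these data known, and the 5 include miR-378, which was chosen on this contrast. miR-676 and miR-149 passed the filter only through db/db. Nothing is therefore read from the list's counts.

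Markers of other liver cells moved with the strains to different degrees. Of 7 leukocyte miRNAs, 4 were tested and 2 fell, miR-142-3p and miR-223, and the list's summed scaled signal was 514 to 761 per array in db/+ and 321 to 420 in db/db. The bile duct epithelial list summed to 62.8 to 68.8 in db/+ and 76.2 to 104 in db/db, with 1 of its 2 tested members higher. Both tested members, miR-200b and miR-200a, passed the filter through db/db alone. The untested miR-141, miR-429 and miR-200c were detected on 2, 2 and 1 db/+ arrays and on 0, 1 and 1 db/db arrays. Over all tested miRNAs 9.45% were higher and 5.51% lower, and nothing is read from the counts of these short lists. In the hepatocyte (3), endothelial (2), erythroid (1) and stellate and smooth muscle (3) lists no tested member passed. The skeletal and heart muscle list summed to at most 2.07 scaled units on any array. The part of these cell types in the miR-378 difference was not tested. In bulk tissue, more cells that hold a miRNA and more of it per cell cannot be told apart.

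The authors' deposited table lists a log-scale score per array for 139 miRNAs, both miR-378 arms among them. In the authors' deposited table miR-378 scored 1.47, 1.43, 1.62 and 1.52 in db/+ and 1.70, 1.81, 1.81 and 1.70 in db/db. In the authors' deposited table miR-378* scored 0.87, 1.03, 1.09 and 0.92 in db/+ and 1.24, 1.27, 1.26 and 1.23 in db/db. The strains did not overlap for either arm, and here miR-378* separated more widely. With the scores converted to log2, the differences were 1.06 for miR-378 and 1.20 for miR-378*, so which arm differed more depended on the processing.

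The direction of miR-378 was the same under all 28 other ways of processing that were fitted, from 0.56 to 1.26. The direction of miR-378* was not: it had -0.44 with normexp background correction and -0.18 with the raw median intensities, under which miR-378 had 0.56 and 0.58. These 28 ways are not separate checks, as all reuse the same arrays and the contrast on which miR-378 was chosen. Changes of the floor or filter alone and the block fits left the miR-378 difference at 1.09. They could not move it, since miR-378 lay above each floor on every array and the blocks were balanced. The shared direction is therefore no further support.

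**Figure D4:**
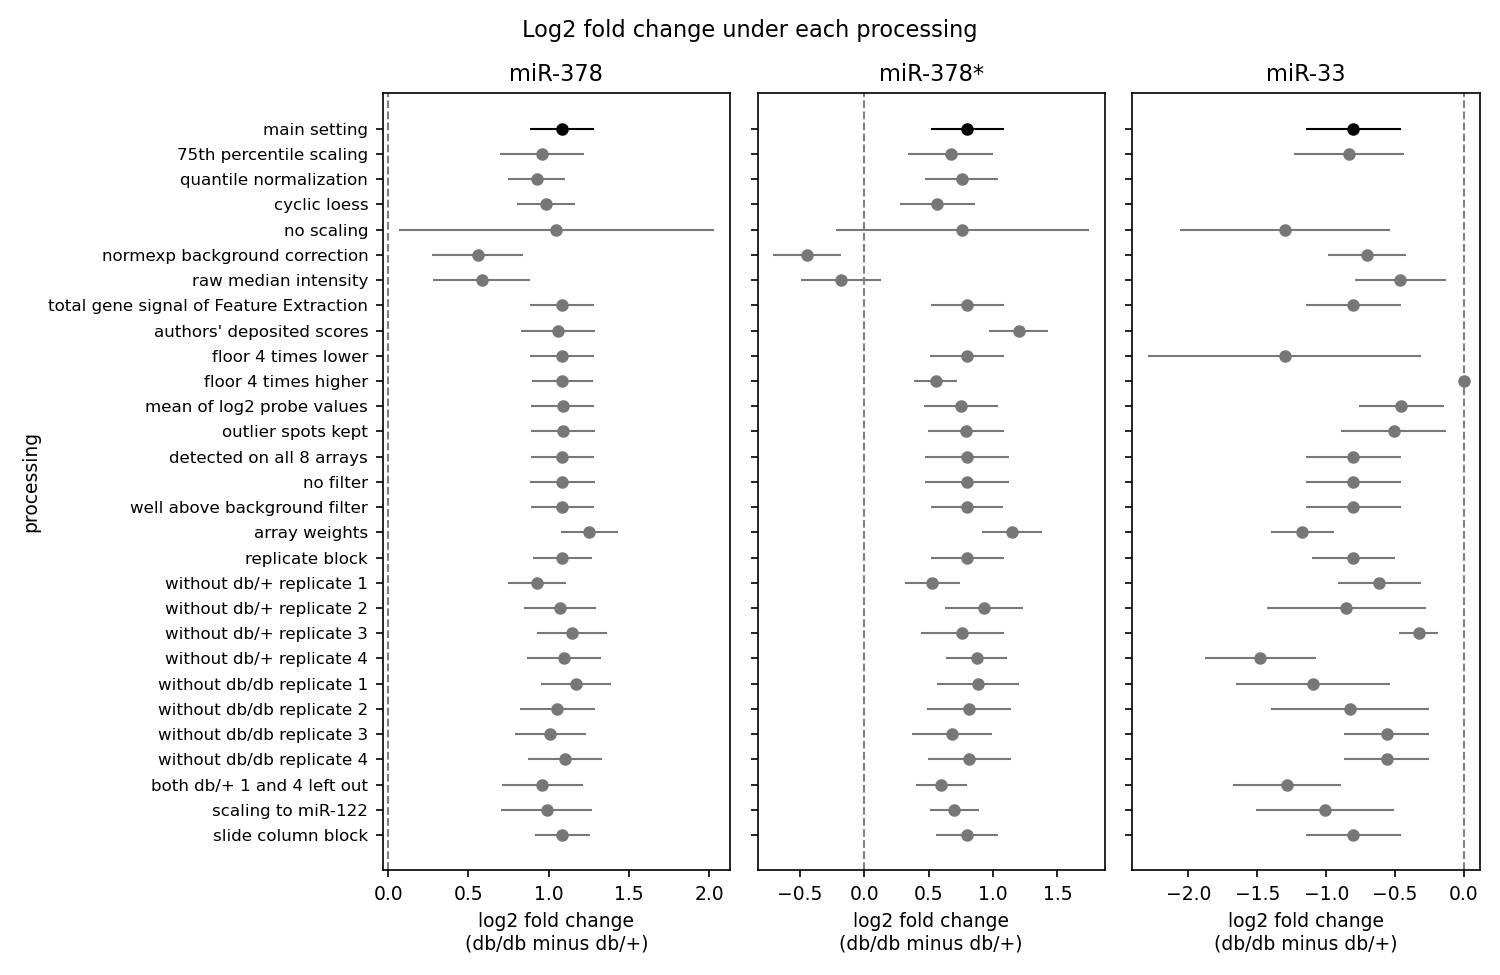
Log2 fold change (db/db minus db/+) of the 3 miRNAs with the main setting (black) and each other processing (grey), with bars for ± SE. Settings with no point could not give a value for miR-33. miR-378 stays between 0.56 and 1.26, miR-378* crosses 0 under the 2 background settings, and miR-33 runs from -1.48 to 0.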

How the data were processed

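Spot intensity came from Agilent Feature Extraction 9.5.3.1 scanner files, per the file headers (the series text names 9.3.5); the processed intensity that was deposited had local background removed and no normalization across arrays. Detection, well-above-background and outlier flags take the values 0 or 1 (other), per the file headers. The deposited series table equalled the raw median intensity in all 12493 rows of each array (column medians 95.5 to 148). The score per miRNA that the authors deposited is global median normalized and log transformed, per the series text; its log base is not given in the sources used here and was estimated as 20.1 (20.0 to 20.2 per array) against the scanner files.

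Outlier spots (3.42% to 4.84% per array) were left out; none was saturated. Spots, then probes of a miRNA, were averaged, divided by a factor (the array's median of the 89 miRNAs that all 8 arrays detected, over the geometric mean of the 8 medians), raised to a floor of 4.59 (each array's lowest detected signal, then the median of these) and put on a log2 scale. limma 3.58.1 in R 4.3.3 (strain as the only term) was fitted to the 127 miRNAs detected on every array of db/+, of db/db or of both; the script was tested on simulated data. A probe counts as well above background on an array where over 50% of its spots do. The titles give db/+ no numbers 1 and 2, which follow the order of the samples. Each array was taken as 1 animal, which the sample titles do not state. The title of db/+ replicate 1 reads livers where the others read liver, so a pool cannot be told apart from 1 animal there. Array number limits precision. Figures used matplotlib 3.10.9.

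The members, lists and tests were chosen with earlier results of these data known. The naming rule took the 3 members, up to 4 list members by smallest p and the 3 most alike patterns per member above the floor. It also took the extreme hairpins. miR-31, miR-103, miR-223, miR-33*, miR-99b, miR-125a-5p and the miR-182 cluster were named after their values were seen. Array names and gene records can be old. Sequences of miR-378 are not reported here. A setting that took the median over all mouse miRNAs could not be run, since that median was below 0 on some arrays.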

Additional observations from a re-analysis of the deposited data

Results flagged for a closer look

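Among the db/db values of miR-33, replicate 1 stood apart, at 2.45 on the log2 scale, from the other 3 arrays, of which 2 had been set to the floor and replicate 3 lay just above it; the gap was 0.996 of the range. The usual chance rate of such a gap does not apply here, since with the others at or beside the floor any value above it gives a ratio near 1. Its unscaled signal, 4.62, was not flagged as detected.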

How the results depend on the processing

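Normexp background correction and raw median intensities gave miR-378 0.56 and 0.58, its shorter probe 0.38 and 0.42, its longer probe 0.65 and 0.66, miR-378* -0.44 and -0.18, and the difference between the miR-378 arms 1.00 and 0.76; that difference was -0.14 with the authors' deposited scores. miR-33 had -1.30 without scaling, -1.30 and 0 with the floor 4 times lower and higher. The cause of these shifts was not tested. The number of miRNAs past the threshold, 19, became 0 without scaling (limma; 1 at an unadjusted p under 0.05), 2 with normexp (both higher), 1 with raw medians, 3 with the authors' scores, 4 with no filter, 42 with array weights (28 higher, 14 lower), 9 without db/+ replicates 1 and 4, 4 with scaling to miR-122, chosen after seeing the data, and 33 by SAM (24 higher, 9 lower; fudge factor at the 5th percentile, false discovery rate under 5%). Leaving out 1 array at a time gave 0.93 to 1.17 for miR-378, 0.93 to 1.17 for each of its probes, 0.53 to 0.93 for miR-378*, -1.48 to -0.33 for miR-33, 0.14 to 0.40 for the arms and 11 to 20 for the count (11 without db/db replicate 2, 12 without db/db replicate 3). Array numbers 3 and 4 are shared by the strains' titles, and deviations of same-numbered arrays correlated at 0.036 and 0.31. These values cannot settle whether the numbers pair the animals, since same-numbered arrays also share a slide column. With a replicate block miR-378 had 1.09, miR-378* 0.80 and miR-33 -0.80, and 18 miRNAs passed. Slide columns 1 to 4 hold same-numbered arrays of both strains, whose deviations correlated at -0.13, -0.37, 0.036 and 0.31. With the slide column as a block, chosen after seeing the data, the 3 differences were 1.09, 0.80 and -0.80, and 17 miRNAs passed. In both block fits each block held as many db/+ as db/db arrays. The differences were therefore fixed in advance and only their SEs could change, so these fits do not check them. Each fit that left out arrays set scaling, floor and filter anew for the arrays kept. Quantile normalization and cyclic loess ran over the tested miRNAs and gave no value for miR-33. Signal over background limits miR-378* on db/+ replicates 2 and 4, and miR-33 on every array but db/+ replicates 1 and 3.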
